A study of Mus musculus with 8 samples.

Results

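The genes described here are 10 genes of prostaglandin synthesis, breakdown and sensing: Ptgs1, Ptgs2, Ptges, Ptges2, Ptges3, Ptgis, Hpgd, Ptger1, Ptger2 and Ptger4. They were chosen by name, as the rows of the deposited table of 22274 genes that carry these symbols, and each symbol matched 1 row. The study sequenced RNA from RFB, a mouse kidney line labelled as fibroblasts, in 8 libraries that had all been given TGF-β, a cytokine that drives fibroblasts towards matrix production. Of these, 4 came from cells that had received an adenovirus labelled GFP, a fluorescent marker (ad-GFP), and 4 from cells given one labelled Cre, the recombinase that cuts out DNA between loxP sites (ad-CRE). The design text describes derivatives of the line with a knock-down of Suv39h1, a methyltransferase of lysine 9 of histone H3. The labels used here give neither the allele that Cre acts on, nor the dose or duration of TGF-β, nor the origin of the replicates, so the p-values speak of spread among the 4 libraries of a group, which may be technical.

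Prostaglandins are short-lived lipid signals made from arachidonic acid, a fatty acid that phospholipases free from membranes. The cyclooxygenases, encoded by Ptgs1 and Ptgs2, turn it into prostaglandin H2, and terminal synthases turn that into prostaglandin E2, prostacyclin and other products. In the kidney, prostaglandin E2 acts on tubular salt and water transport, renin release and blood flow through the EP receptors, and 15-hydroxyprostaglandin dehydrogenase, encoded by Hpgd, starts its inactivation.

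Total counts ranged from 15998257 to 22297598 per library. The gene named in the design text, Suv39h1, had 37.2, 43.6, 44.1 and 41.3 CPM in the ad-GFP and 32.3, 32.9, 33.4 and 31.6 CPM in the ad-CRE libraries. It fell from 41.5 ± 3.16 to 32.5 ± 0.795 CPM (read counts scaled to library size; mean ± SD, n = 4 per group; −0.35 on the log2 scale, edgeR adjusted p = 8.65e-07). Smarca4, which encodes the chromatin remodeller BRG1, fell from 288 ± 11.1 to 34.3 ± 3.20 CPM (−3.07 on the log2 scale, edgeR adjusted p = 3.82e-31). On the deposited FPKM scale (counts per length and library size) the epithelial genes Krt8 and Cdh1 lay at 352 to 1031 and 43.5 to 112, above the 9.79 to 30.7 of the fibroblast collagen gene Col1a1 in every library. The most abundant genes of the fibroblast list were Acta2 and Vim, which other cell types can also express. Acta2, smooth muscle actin, had a mean of 859.5 FPKM in ad-GFP and 579 in ad-CRE, and Vim, vimentin, 747 and 315. All other genes of that list had a mean of at most 28.9 FPKM (Col1a1 in ad-GFP), down to 0 in ad-GFP and 0.005 in ad-CRE for Lum. The libraries thus held both mesenchymal and epithelial transcripts. The summed levels of several marker lists differed between the groups. The counts of markers called stand beside 36.8% higher and 36.3% lower among all 13702 genes tested, and nothing is read from them alone. Of 11 fibroblast markers tested, 10 fell and 1 rose in ad-CRE, with a summed level of 3503 to 3619 CPM in ad-GFP and 1877 to 1999 CPM in ad-CRE libraries. Of 12 tubular markers, 7 rose and 4 fell (2597 to 2815 and 5066 to 5230 CPM), of 9 endothelial markers 9 fell (191 to 208 and 86.5 to 96.2 CPM), of 8 leukocyte markers 7 fell (276 to 317 and 199 to 212 CPM), and of 7 smooth muscle and pericyte markers 5 fell and 1 rose (1405 to 1477 and 829 to 871 CPM). Of 7 mast cell markers 2 were tested (1 rose, 1 fell), and the list summed to 9.86 to 10.6 and 9.37 to 10.6 CPM. Aqp2, Cd3e, Fcer1a and Mcpt4 had 0 reads, which allows up to 0.0194 CPM over the 8 libraries pooled (3 reads, counting error only). The part of such markers in the results below was not tested, and in these bulk samples fewer cells of a type and less RNA per cell cannot be told apart.

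Both cyclooxygenase genes fell in ad-CRE, and the inducible one, Ptgs2, fell most of the 8 that could be tested. Of the terminal synthases, the abundant Ptges3 fell modestly while Ptges2 rose. Hpgd, which encodes the inactivating enzyme, and the EP4 receptor gene Ptger4 fell by less than the cyclooxygenases. Of the 8 genes that passed the filter on low counts, 5 fell, 2 rose and 1 did not pass the threshold (quasi-likelihood test of edgeR, Benjamini-Hochberg adjustment across the table, threshold 0.05). These 7 of 8 stand against a background of 73.1% of all 13702 genes tested, 36.8% higher and 36.3% lower, so the count by itself is no result about these genes. The groups did not overlap in 6 of the 8, against 66.2% of all genes tested. The median log2 fold change of the 8 was −0.25, where that of all genes tested was 0.00. Ptgis and Ptger2 had too few reads to be tested in this way.

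**Figure D1:**
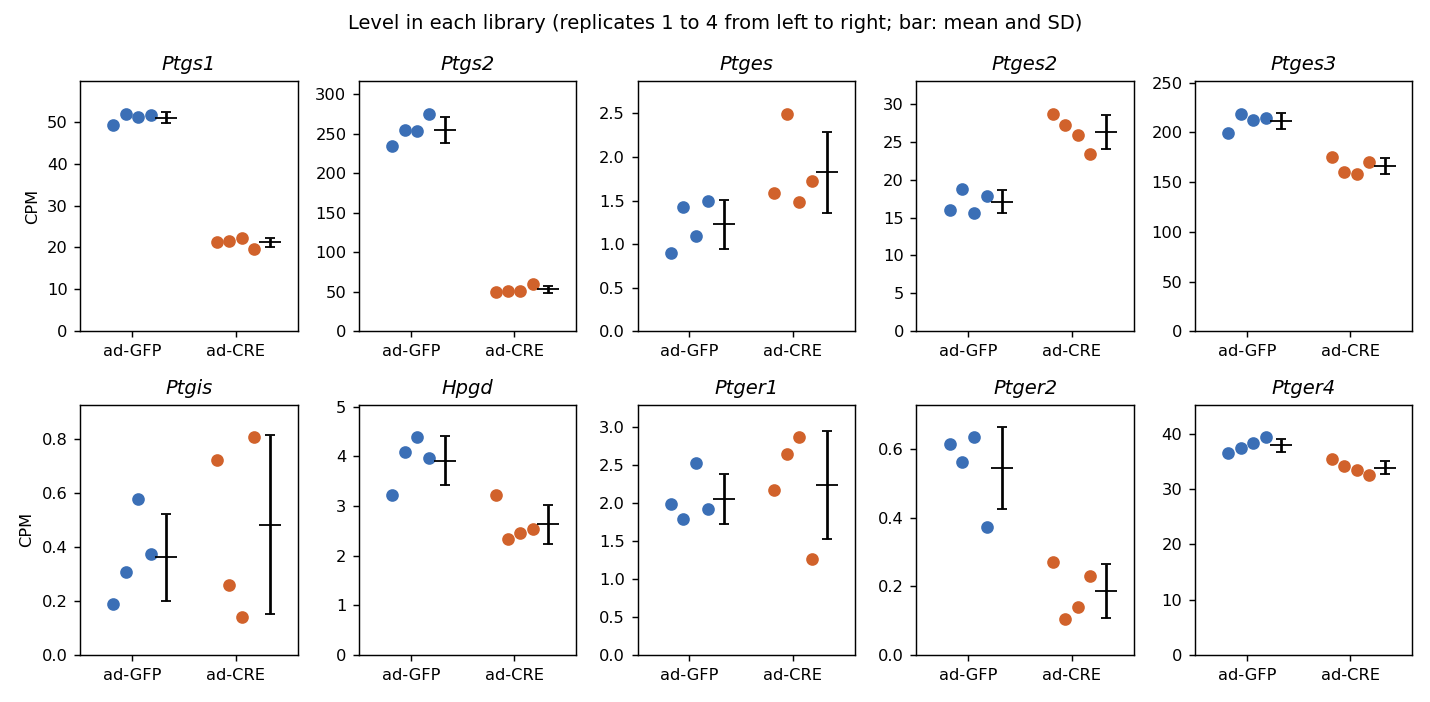
CPM of each of the 10 genes in the 4 ad-GFP and 4 ad-CRE libraries, 1 point per library, with the mean and SD as a bar beside them and each vertical axis starting at 0. The groups of Ptgs2 and Ptgs1 lie far apart, with means of 254.6 against 52.9 and 51.0 against 21.2 CPM, while the points of Ptges, Ptgis and Ptger1 overlap.

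Ptgs2 encodes cyclooxygenase 2, the inducible enzyme, and lies on chromosome 1 from 150100031 to 150108227 on the plus strand (GENCODE M21, GRCm38; ENSMUSG00000032487). It had 235, 254, 254 and 275 CPM in the ad-GFP libraries, numbered 1 to 4, and 49.7, 51.4, 50.6 and 59.9 CPM in those of ad-CRE. Every ad-CRE library lay below every ad-GFP library by a wide margin. The mean fell 4.81-fold, from 255 ± 16.5 to 52.9 ± 4.70 CPM (SD, n = 4), a difference of −2.27 on the log2 scale with an SE of 0.0461 (edgeR adjusted p = 2.01e-27). Behind these values are 18784 reads in ad-GFP and 4221 in ad-CRE. Of all genes tested, 338 (2.47%) had a log2 fold change as low or lower.

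Ptgs1 encodes cyclooxygenase 1, the form that many tissues make constitutively (chromosome 2, 36230426 to 36252272, plus strand; ENSMUSG00000047250). Its level was 49.3, 51.9, 51.1 and 51.7 CPM in the ad-GFP and 21.4, 21.6, 22.2 and 19.6 CPM in the ad-CRE replicates. The groups were again far apart, with little spread within each. Ptgs1 fell 2.41-fold, from 51.0 ± 1.22 to 21.2 ± 1.09 CPM, that is −1.26 on the log2 scale with an SE of 0.0503 (edgeR adjusted p = 6.39e-20). The fall of Ptgs1 was thus smaller than that of Ptgs2, and 947 genes (6.91%) had a log2 fold change as low or lower.

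The proportion of the cyclooxygenase transcripts shifted. On the deposited FPKM scale, which allows levels of different genes to be compared, Ptgs2 made up 75.4%, 75.9%, 76.2% and 77.4% of summed cyclooxygenase transcripts in the ad-GFP and 60.0%, 60.5%, 61.1% and 66.3% in the ad-CRE replicates. Ptgs2 was the larger part in every library, but less so in ad-CRE, and ad-CRE replicate 4 was nearest to the ad-GFP group. The mean share went from 76.2% ± 0.847 to 62.0% ± 2.90 (SD, n = 4), a difference of −14.3 percentage points. The 2-sided exact permutation test gave p = 0.0286, the smallest value that 4 against 4 libraries can give, and 0.0357 after adjustment over the 5 permutation tests made. The sum of both genes went from 75.6 ± 3.997 to 19.3 ± 0.724 FPKM, and the ratio of Ptgs2 to Ptgs1 from 3.21 ± 0.153 to 1.64 ± 0.217.

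The starts of 3 genes are shown, those of the 2 cyclooxygenase genes, which fell, and of Ptges2, the synthase gene that rose most clearly. RefSeq entries for GRCm38 matched 8 of the 10 genes, with 250 bases before and 50 after the annotated start, and the 250 bases before it are printed 5′ to 3′. Capitals mark matches, on either strand, to 6 sets of letters. An E-box is searched as CACGTG and the core of a cAMP response element as TGACG. A C/EBP site is searched with the letters TTGCNNAA and a TATA box with TATAAA. An AP-1 site is searched by means of the letters TGANTCA, and the core of an interferon response element is searched by means of GAAANNGAA. The Ptgs2 stretch is chr1:150099781-150100030, that of Ptgs1 chr2:36230176-36230425 and that of Ptges2 chr2:32395640-32395889, each on the plus strand. The RefSeq start of Ptges2 lies slightly before the GENCODE one.
Ptgs2: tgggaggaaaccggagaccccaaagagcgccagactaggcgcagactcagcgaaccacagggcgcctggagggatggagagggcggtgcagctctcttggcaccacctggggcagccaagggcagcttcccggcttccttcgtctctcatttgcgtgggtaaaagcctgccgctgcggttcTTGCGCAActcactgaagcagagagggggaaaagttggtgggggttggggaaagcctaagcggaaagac
Ptgs1: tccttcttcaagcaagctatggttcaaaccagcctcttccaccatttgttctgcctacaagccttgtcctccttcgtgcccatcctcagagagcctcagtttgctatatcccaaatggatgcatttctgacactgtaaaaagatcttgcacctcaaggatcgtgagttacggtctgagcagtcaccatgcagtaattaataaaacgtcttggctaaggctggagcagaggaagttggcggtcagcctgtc
Ptges2: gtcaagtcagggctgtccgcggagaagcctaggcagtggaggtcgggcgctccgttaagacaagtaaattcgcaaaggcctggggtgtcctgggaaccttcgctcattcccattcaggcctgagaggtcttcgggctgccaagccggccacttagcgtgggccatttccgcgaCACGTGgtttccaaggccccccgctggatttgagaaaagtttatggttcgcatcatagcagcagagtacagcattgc

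The Ptgs2 stretch held a C/EBP match, TTGCGCAA, 69 to 62 bases before the start. A further match lay just after the annotated start, in the stretch chr1:150100036-150100060, where a cAMP response element core and an E-box overlap by 2 bases.
Ptgs2, bases 6 to 30: caccactaCGTCACGTGgagtccgc
In the Ptges2 stretch an E-box match lay 77 to 72 bases before the start, and the Ptgs1 stretch held no match to these letters. Over the same 300-base window, an E-box was found in 7.15% of all 32851 RefSeq starts, the cAMP response element core in 20.8% and the C/EBP letters in 10.8%. The 6-letter GC box GGGCGG was found, of these 3 genes, in Ptgs2 and in 35.7% of all starts, and the loose NF-kB letters GGGNNNNCC in Ptgs2 and Ptges2 and in 43.8% of all. No AP-1 or interferon response element letters were found in the windows of the 8 genes, against 7.81% and 8.56% of all starts. Of those 8 windows, 2 held an E-box (Ptgs2 and Ptges2) and 2 the cAMP response element core (Ptgs2 and Ptges3). The C/EBP letters were found in 2 (Ptgs2 and Ptger2). A match is a description of letters and not a bound site. The start of Ptgs2os, a non-coding gene on the other strand, lies 68 bases from that of Ptgs2, and it was not analysed here.

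The prostaglandin E synthases take prostaglandin H2 to prostaglandin E2. Ptges3, also known as p23, encodes the cytosolic synthase, which is also a co-chaperone of HSP90 (chromosome 10, 128058954 to 128077272, plus strand; ENSMUSG00000071072). It had 199.7, 219, 213 and 215 CPM in the ad-GFP and 175, 160.4, 158 and 170.2 CPM in the ad-CRE replicates. The groups did not overlap, though their gap was small beside that of the cyclooxygenases. Ptges3 fell from 212 ± 8.31 to 166 ± 8.10 CPM, that is −0.35 on the log2 scale with an SE of 0.0338 (edgeR adjusted p = 1.22e-10). A pseudogene, Ptges3-ps, is annotated, and the sources used here do not say how reads common to both were treated.

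Ptges2 encodes a membrane-associated synthase (chromosome 2, 32395896 to 32405772, plus strand; ENSMUSG00000026820). It had 16.05, 18.8, 15.6 and 17.8 CPM in the ad-GFP and 28.7, 27.3, 25.9 and 23.4 CPM in the ad-CRE replicates, with no overlap. Ptges2 rose from 17.1 ± 1.51 to 26.3 ± 2.25 CPM, that is 0.63 on the log2 scale with an SE of 0.0691 (edgeR adjusted p = 1.96e-09). It thus moved opposite to both cyclooxygenase genes.

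Ptges encodes microsomal prostaglandin E synthase 1, the inducible form that is often coupled to cyclooxygenase 2 (chromosome 2, 30889471 to 30929863, minus strand; ENSMUSG00000050737). Its level was low in every library, 0.899, 1.43, 1.10 and 1.49 CPM in the ad-GFP and 1.58, 2.50, 1.48 and 1.73 CPM in the ad-CRE replicates, or 90 and 145 reads in all. The groups overlapped, since ad-CRE replicate 3 lay below ad-GFP replicate 4. The log2 fold change was 0.57 (SE 0.240, edgeR adjusted p = 0.0334), which passed the threshold but did not with DESeq2 (adjusted p = 0.0615). It was also lost without ad-GFP replicate 1 (edgeR adjusted p = 0.125), ad-GFP replicate 3 (0.0694) or ad-CRE replicate 2 (0.175).

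Since Ptges3 was by far the most abundant of the 3, it took 96.1% to 96.9% of their summed FPKM in the ad-GFP and 92.5% to 94.3% in the ad-CRE libraries. The share fell by 3.16 percentage points (exact permutation p = 0.0286, adjusted 0.0357), and the ratio of Ptges3 to Ptges2 went from 30.3 ± 2.90 to 15.4 ± 1.87 (SD, n = 4). Ptgis, which encodes prostacyclin synthase (chromosome 2, 167191805 to 167240604, minus strand; ENSMUSG00000017969), had 26 reads in the ad-GFP and 38 in the ad-CRE libraries. Its levels were 0.189, 0.306, 0.577 and 0.373 CPM and 0.724, 0.260, 0.139 and 0.806 CPM, so that the ad-CRE libraries held both the lowest and the highest value. No difference was detectable at this depth (exact permutation p = 0.571, adjusted 0.571).

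**Figure D2:**
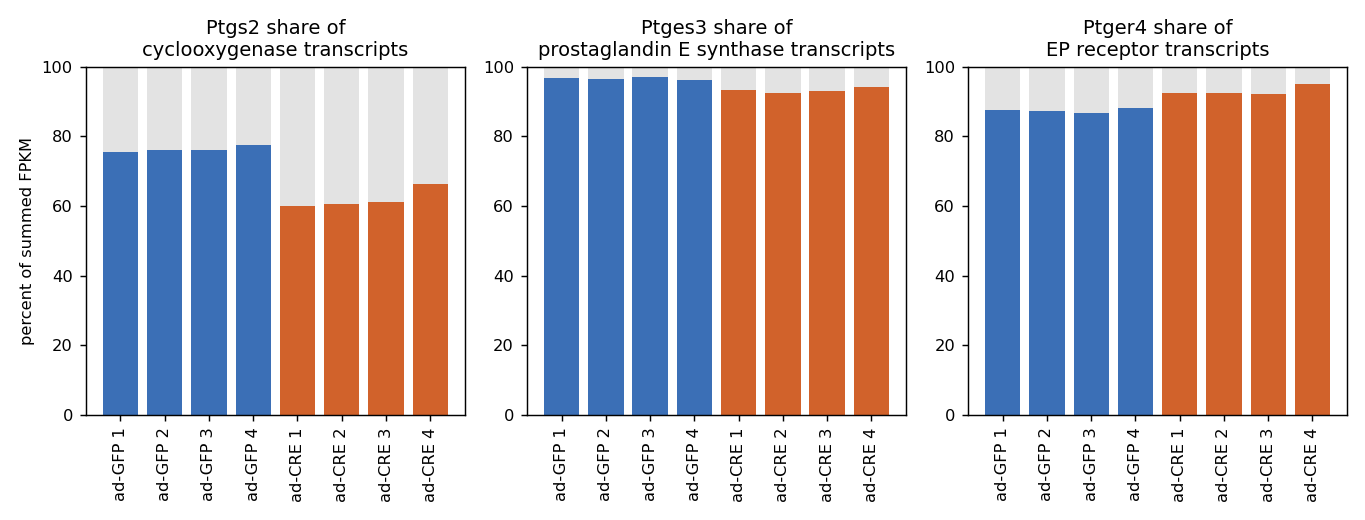
Percent of summed FPKM taken by Ptgs2 among the cyclooxygenase genes, by Ptges3 among the prostaglandin E synthase genes and by Ptger4 among the EP receptor genes, 1 bar per library from 0 to 100%, with the rest in grey. The 4 ad-CRE bars lie below the 4 ad-GFP bars in the first and second panels and above them in the third.

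Hpgd encodes the dehydrogenase that begins the inactivation of prostaglandins (chromosome 8, 56294585 to 56321043, plus strand; ENSMUSG00000031613). It had 3.22, 4.08, 4.38 and 3.98 CPM in the ad-GFP and 3.21, 2.34, 2.45 and 2.53 CPM in the ad-CRE replicates. The groups were only just apart, since ad-GFP replicate 1 and ad-CRE replicate 1 nearly met. Hpgd fell from 3.91 ± 0.495 to 2.63 ± 0.393 CPM, that is −0.56 on the log2 scale with an SE of 0.162 (edgeR adjusted p = 0.00284), on 288 and 213 reads.

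The receptors named Ptger1 to Ptger4 encode EP1 to EP4, through which prostaglandin E2 acts. EP2 and EP4 raise cyclic AMP, EP3 mostly lowers it and EP1 raises calcium. Ptger4 was the main receptor transcript in this line (chromosome 15, 5206661 to 5244187, minus strand; ENSMUSG00000039942), with 36.5, 37.4, 38.3 and 39.3 CPM in the ad-GFP and 35.4, 34.1, 33.5 and 32.5 CPM in the ad-CRE replicates. The groups did not overlap but lay close together. Ptger4 fell from 37.9 ± 1.21 to 33.9 ± 1.21 CPM, that is −0.16 on the log2 scale with an SE of 0.0484 (edgeR adjusted p = 0.00446). An 82-base part of its exons is shared with Ttc33 on the other strand. The sources used here do not say whether counting used strand, so values of genes whose exons overlap others are uncertain.

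Ptger2 (chromosome 14, 44988195 to 45003820, plus strand; ENSMUSG00000037759) had 0.615, 0.561, 0.634 and 0.373 CPM in the ad-GFP and 0.271, 0.104, 0.139 and 0.230 CPM in the ad-CRE replicates. The ad-CRE libraries lay below, but on 41 and 15 reads in all. The mean went from 0.546 ± 0.120 to 0.186 ± 0.0779 CPM (SD, n = 4; 2-sided exact permutation p = 0.0286, adjusted 0.0357). With no filter beyond 1 read its log2 fold change was −1.51 (SE 0.512, edgeR adjusted p = 0.00669).

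Ptger1 had 1.99, 1.79, 2.54 and 1.93 CPM in the ad-GFP and 2.17, 2.65, 2.87 and 1.27 CPM in the ad-CRE replicates (chromosome 8, 83666678 to 83672753, plus strand; ENSMUSG00000019464). The ad-CRE libraries spread on both sides of the ad-GFP libraries. The log2 fold change was 0.14 (SE 0.214, edgeR adjusted p = 0.559), and −0.00075 without ad-CRE replicate 3.

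Among the EP receptor genes, Ptger4 took 86.6% to 88.0% of summed FPKM in the ad-GFP and 92.2% to 95.0% in the ad-CRE libraries, a rise of 5.68 percentage points (exact permutation p = 0.0286, adjusted 0.0357). This sum includes Ptger3, the EP3 gene, which was not among the 10 genes and fell from 2.55 ± 0.173 to 0.539 ± 0.161 CPM (log2 fold change −2.20, SE 0.245, edgeR adjusted p = 2.54e-09) on 188 and 44 reads. The share of Ptger4 therefore rose while its own level fell.

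The order of levels per length differed between the groups in the middle of the list. In ad-GFP it ran from Ptges3 (107 ± 4.22 FPKM) through Ptgs2 (57.7 ± 3.66), Ptgs1 (17.96 ± 0.418), Ptger4 (11.7 ± 0.353), Ptges2 (3.56 ± 0.403) and Hpgd (2.35 ± 0.298) to 4 genes below 1 FPKM. Each of these 6 lay above the next in every ad-GFP library, whereas neighbours among Ptger1, Ptges, Ptgis and Ptger2 overlapped. In ad-CRE, Ptges3 (82.2 ± 4.05 FPKM) and Ptgs2 (11.95 ± 0.972) still led, but Ptger4 (10.2 ± 0.389) came before Ptgs1 (7.32 ± 0.383), and no libraries of these 4 genes overlapped. Ptges2 (5.38 ± 0.509) and Hpgd (1.55 ± 0.231) followed, then Ptges, Ptger1 and Ptgis, whose neighbours overlapped, and Ptger2 at 0.050 ± 0.0183 FPKM.

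**Figure D3:**
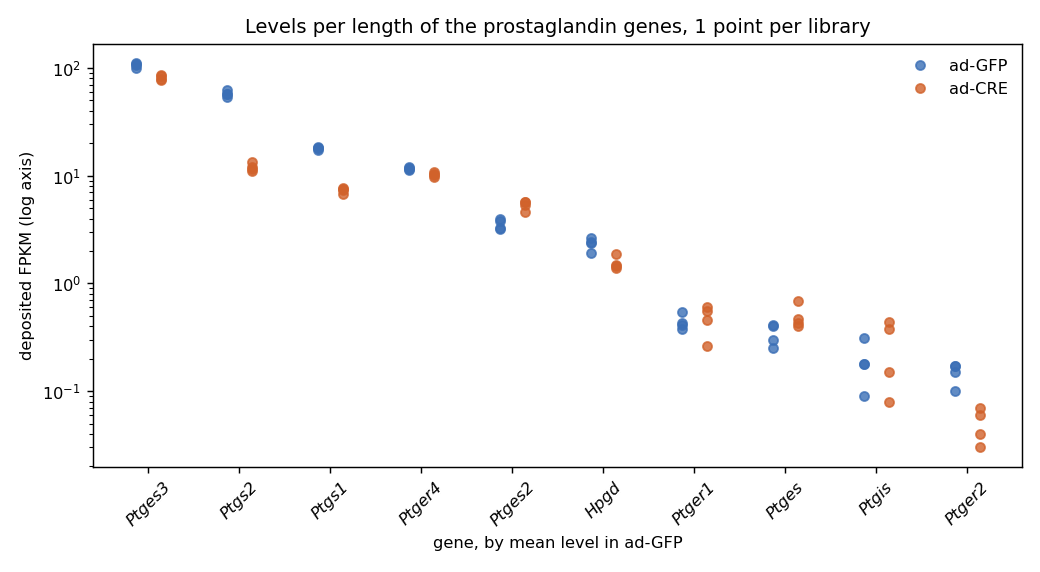
Deposited FPKM of each gene on a log axis, 1 point per library, ordered by the mean in ad-GFP. Ptgs2 lies at 53.3 to 62.2 FPKM in the ad-GFP and 11.1 to 13.3 FPKM in the ad-CRE libraries, close to Ptger4 in the latter, and the last 4 genes are below 1 FPKM in every library.

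In the authors' deposited table the log2 fold changes of mean FPKM were −2.27 for Ptgs2, −1.29 for Ptgs1, −0.38 for Ptges3, 0.60 for Ptges2, −0.60 for Hpgd and −0.19 for Ptger4. Ptges had an FDR of 0.0925 in the authors' deposited table, above 0.05, and Ptger2 one of 0.0208.

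**Figure D4:**
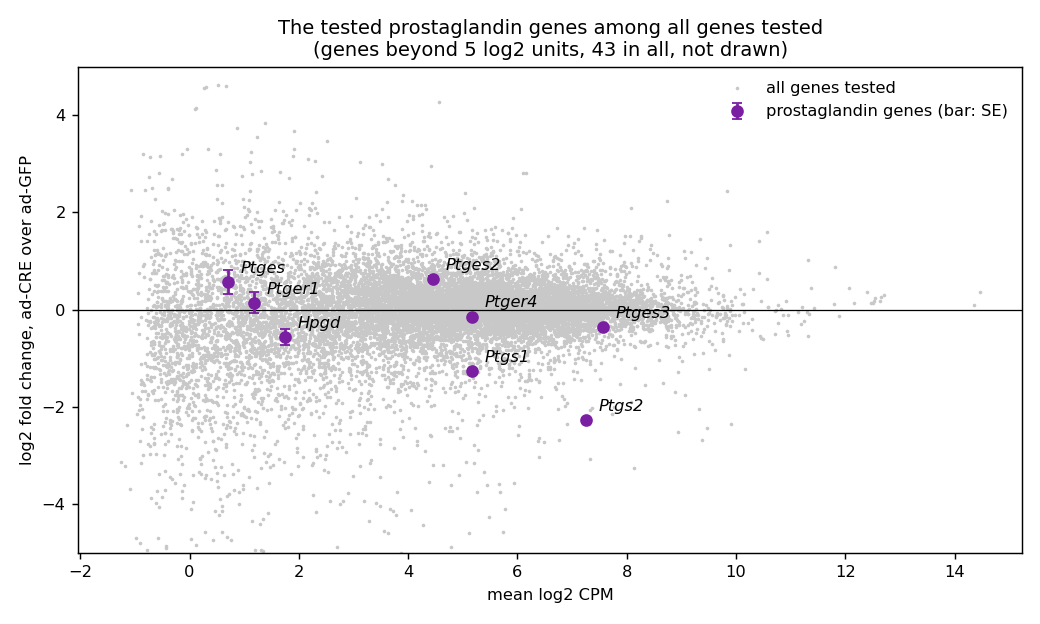
Log2 fold change of ad-CRE over ad-GFP against mean log2 CPM for all genes tested (grey) and the 8 prostaglandin genes tested (purple, with SE bars). Ptgs2 at −2.27 and Ptgs1 at −1.26 are the lowest of the 8, and 43 genes beyond 5 log2 units are not drawn.

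The genes whose pattern over the 8 libraries was most like that of Ptgs2, by the root mean square difference of centred log2 CPM compared over 11178 genes whose mean log2 CPM reached 2, were Aldh1l2, Nid1, Il11, Gvin1 and 9930111J21Rik2, with differences of 0.0809 to 0.0992. Aldh1l2 encodes a mitochondrial folate enzyme, Nid1 the basement membrane protein nidogen 1 and Il11 a cytokine. Their log2 fold changes lay between −2.36 and −2.25. For Ptgs1 the nearest were Cotl1, Arhgap31, Fth1, Lrrc75b and Pon3, with differences of 0.0418 to 0.0470 and log2 fold changes of −1.28 to −1.22. The measure picks genes with a like difference between the groups, so the closeness of these log2 fold changes is no separate result. Gvin1 and 9930111J21Rik2 belong to a family of closely related genes, so their single values are uncertain.

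Upstream of the cyclooxygenases, genes that free arachidonic acid or return it to lipids moved both ways. There 8 of 19 tested genes rose, 7 fell and the other 4 missed the threshold (median −0.07). The counts called in this and the following lists stand beside 36.8% higher and 36.3% lower among all genes tested. Nothing is read from these counts alone. Pla2g4a, the cytosolic phospholipase that is the main source of arachidonic acid for prostaglandins, fell from 95.8 ± 4.92 to 35.3 ± 0.938 CPM (SD, n = 4), that is −1.44 on the log2 scale with an SE of 0.0439 (edgeR adjusted p = 6.44e-23). Acsl4, which links arachidonic acid to coenzyme A so that it can re-enter lipids, fell by 0.64 on the log2 scale. Pla2g6, a calcium-independent phospholipase, rose by 1.01, from 33.4 ± 0.946 to 67.3 ± 3.11 CPM.

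Of the synthases of other prostanoids, 7 of 10 tested were lower, 1 was higher and 2 did not pass (median −0.75). Among all genes tested, 36.3% were lower and 36.8% higher. Akr1b3, an aldose reductase that can also make prostaglandin F2α, fell from 169 ± 5.73 to 114 ± 7.47 CPM (log2 fold change −0.57, edgeR adjusted p = 1.2e-14). Its relatives Akr1b8 and Akr1b7 had log2 fold changes of −0.80 and −4.58, the latter on 209 and 9 reads, and reads of such close relatives may be split between them. The 1 that rose, singled out after its values were seen, was Prxl2b (0.81), a prostaglandin F synthase gene. Of 7 genes listed with the other prostanoid receptors 2 were tested, Ptger3 and Ptgfrn, and Ptgfrn, which encodes a membrane protein that binds the prostaglandin F receptor, rose by 0.57 (edgeR adjusted p = 2.36e-16).

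Prostaglandins leave cells partly through the exporter ABCC4 and are taken up by the carrier encoded by Slco2a1. Both of these abundant transcripts fell, Abcc4 from 572 ± 21.2 to 369 ± 12.4 CPM (log2 fold change −0.63, edgeR adjusted p = 9.97e-19) and Slco2a1 from 289 ± 12.8 to 164 ± 5.57 CPM (−0.82, edgeR adjusted p = 3.49e-20). Ptgr1, a reductase that acts after Hpgd, fell by 1.26 on the log2 scale. In this list of 7 tested carriers and reductases, 3 fell, 3 rose and 1 missed the threshold (median −0.09).

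Among 16 genes of the other arachidonate routes, 7 were lower, 6 higher and 3 not past the threshold (median −0.26). Mgst2, a glutathione transferase that can make leukotriene C4, had a log2 fold change of −4.09 on 134 and 8 reads. The cytochrome P450 genes Cyp4f13 and Cyp2j6 rose by 0.87 and 0.45, and the abundant Ephx1, an epoxide hydrolase, and Lta4h, leukotriene A4 hydrolase, by 0.13 and 0.12.

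Downstream of EP2 and EP4, 19 of 34 cAMP signalling genes were lower, 6 higher and 9 not past the threshold (median −0.26). Adcy1, an adenylyl cyclase, fell from 75.3 ± 3.70 to 31.8 ± 1.18 CPM (log2 fold change −1.24, edgeR adjusted p = 1.08e-20). Among phosphodiesterases, which break cAMP down, Pde8a fell by 1.26 while Pde7a rose by 0.90. The most abundant genes of the list had −0.20 for Gnas, the stimulatory G protein subunit, and 0.08 for Prkar1a, a regulatory subunit of protein kinase A.

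Among 18 genes known to respond to cAMP, 8 were lower, 6 higher and 4 not past the threshold (median −0.27). Areg, a ligand of the EGF receptor, fell from 26.3 ± 1.22 to 1.96 ± 0.457 CPM (log2 fold change −3.75, edgeR adjusted p = 7.79e-24), whereas Vgf, a neuropeptide precursor, rose by 3.47. The phosphatase genes Dusp4 and Dusp1 moved in opposite directions, with −0.94 and 0.54.

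The messenger RNA of Ptgs2 carries AU-rich elements, and proteins that bind such elements can alter its lifetime. Among 13 of their genes, 8 were higher, 4 lower and 1 not past the threshold (median 0.14). Zfp36l1 rose from 83.3 ± 3.90 to 192 ± 9.23 CPM (log2 fold change 1.20, edgeR adjusted p = 9.09e-23). Hnrnpd and Tial1 had −0.51 and −0.42, and the abundant Rbm3 had −0.21. The part of these genes in the level of Ptgs2 was not tested. Over the 8 lists outside the 10 genes, 117 of 153 genes were tested, of which 39 rose and 56 fell, beside 36.8% higher and 36.3% lower among all genes tested.

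**Figure D5:**
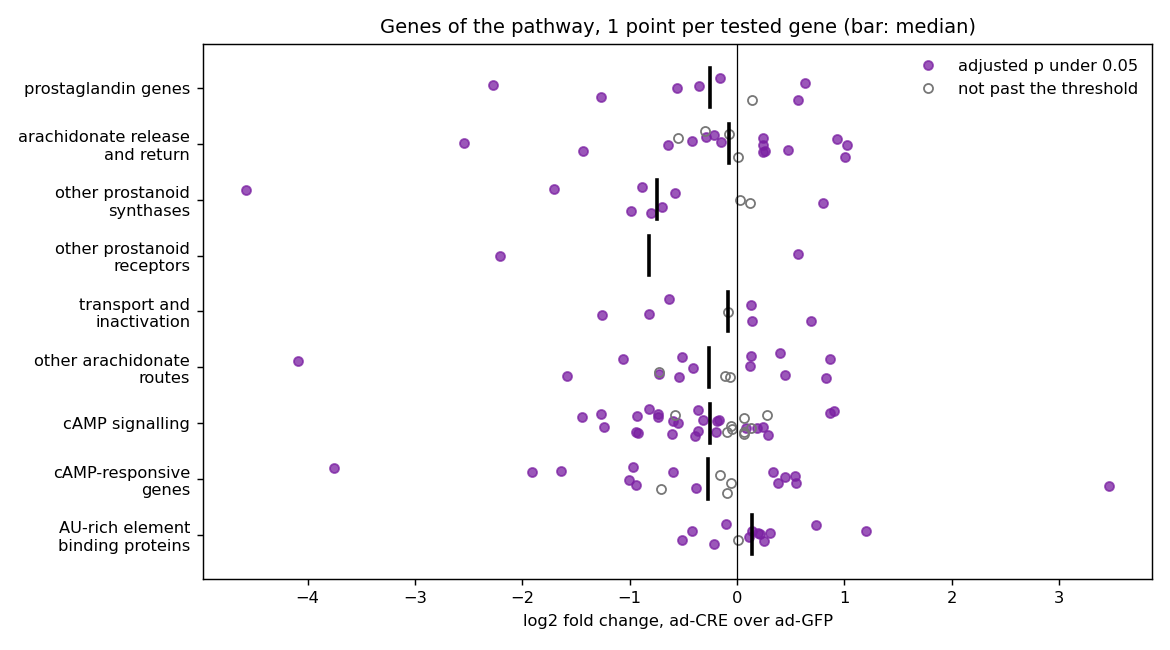
Log2 fold change of ad-CRE over ad-GFP for each tested gene of the 10 prostaglandin genes and the 8 other lists, filled where the edgeR adjusted p is under 0.05, with the median of each list as a bar. The median of the other prostanoid synthases lies at −0.75, that of the AU-rich element binding proteins at 0.14, and each list with over 2 genes holds points on both sides of 0.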

How the data were processed

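RNA of 8 libraries was extracted with an RNeasy kit and sequenced after a SMARTer preparation, per the labels' protocols. The submitters' processing notes name GRCm38 and mm10; aligner, counting tool, annotation and strand setting were not stated by any source at hand. The authors deposited a read count, an FPKM value per library and, per the file headers, group means of FPKM, their log2 ratio, a p-value and an FDR. In 38 genes counts are 0 but an FPKM is above 0, so counts may be rounded estimates, and the length implied by count and FPKM varied between libraries by 6.80% for Ptgs2 and 10.5% for Ptges2.

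Tests of the counts used edgeR 4.0.16 under R 4.3.3 (filterByExpr, TMM, glmQLFit and glmQLFTest, group as the only term), with Benjamini-Hochberg adjustment over 13702 genes and a threshold of 0.05. SE is the absolute log2 fold change divided by the root of F. Shares used deposited FPKM. Counts were simulated with the mean levels and library sizes of this comparison (13702 genes, 200 changed). Of changes of 0.25, 0.5, 1 and 2 log2 units, 76%, 84%, 96% and 100% were recovered, and 2.20% of calls were false. The simulation gave all genes the same spread and changed far fewer than the 73.1% called in the data. These rates were therefore not shown to hold for the data. Positions are from GENCODE M21, which held 22219 of 22274 IDs, and sequences from RefSeq for GRCm38. Pairs of replicates differed beyond sampling noise (chi-square over degrees of freedom at least 1.69), so none was merged.

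The genes, lists and naming rule were chosen with earlier results of these data known. Of each pathway list, the 3 genes with the smallest p and the 2 with the highest mean expression are named, except for an item that is not reported here. Suv39h1, Smarca4, Col1a1, Krt8 and Cdh1 are named as checks of the labels. The marker lists are given by counts and sums, with genes at 0, and Acta2, Vim and Lum were added after their values were seen. Alternatives were DESeq2 1.42.0, limma 3.58.1 (voom, and log2(FPKM + 1) or log2(FPKM + 0.1)), other scalings, filters and thresholds, a replicate block and leaving out each library.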

Additional observations from a re-analysis of the deposited data

Results flagged for a closer look

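In each of 26 groups of 4 libraries (10 genes and 3 shares in 2 groups) the highest and lowest library were compared with the rest. Chance alone marks about 1 in 20 such groups. Ad-CRE replicate 4 stood apart in 2 of them. Its Ptgs2 level was 59.9 CPM, where the other ad-CRE libraries had 49.7 to 51.4 CPM. The share of Ptger4 among EP receptor transcripts was 95.0% in it, against 92.2% to 92.5% in the others.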

How the results depend on the processing

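Of 133 values of the 8 tested genes under an alternative, 126 kept their direction and side of the threshold. Of the other 7, 6 were those of Ptges (4 in the report, and log2(FPKM + 1) with 0.16 and log2(FPKM + 0.1) with 0.43), and 1 was Ptger1, at −0.00075 without ad-CRE replicate 3 and 0.32 without ad-CRE replicate 4. Of the 2 genes that rose, 1 was left with 5 CPM in 4 libraries (Ptges not tested), DESeq2, either FPKM scale or an adjusted p of 0.01, 1 to 2 when a library was left out, and 0 with a change of at least 1 log2 unit (edgeR), where 2 of the 5 that fell were left. The count that fell was 4 with 5 CPM in 4 libraries (Hpgd not tested). It was 5 to 6 when a library was left out, 6 where Ptger2 passed the filter. At 1 log2 unit 1955 of 10022 genes were left over the whole table, and 4 of 39 and 16 of 56 of the other pathway genes that rose and fell. Same-numbered libraries did not deviate together (correlations of −0.07 to 0.07, against −0.13 to 0.11 for libraries of unlike number). No pairing by number was seen, though these values cannot exclude one. The replicate block gave 9963 calls, with 2 and 5 of the prostaglandin genes, and differences of −14.3, −3.16 and 5.68 points for the shares of Ptgs2, Ptges3 and Ptger4 (exact p = 0.125, the smallest 4 pairs allow). The cause of these changes was not tested where none is named. Depth limits Ptgis, Ptger2, Ptges and Ptger1.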

Other observations

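Prostanoid receptors outside the EP family were near the limit of detection. Ptgfr, the prostaglandin F receptor gene, had 19 reads in the ad-GFP and 58 in the ad-CRE libraries, Tbxa2r, the thromboxane receptor gene, 28 and 16, Ptgdr2 6 and 2, and Ptgir, the prostacyclin receptor gene, 4 and 3. Ptgdr had 0 reads, which allows up to 0.0194 CPM over the 8 libraries pooled. None of these 5 passed the filter on low counts, and no test was made.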
